A study of Homo sapiens with 6 samples.

Results

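Loss of the repressive histone mark H3K27me3 at promoters after E2F1 knockdown was examined in MDA-MB-231, a long-established line of human triple-negative breast cancer cells. The regions were chosen by the peak lists themselves: a region was called lost when a peak of the control shRNA list shared no base with any peak of the shE2F1 list, and it was at a promoter when its midpoint lay within 1000 bp of a transcription start site (TSS) of any gene in GENCODE release 44. Of the 123957 control shRNA peaks, 10615 lay at promoters, and 2515 of these were lost. That is 23.7% of the promoter peaks, against 32.5% of all control shRNA peaks. The contrast that chose the regions fixed both shares. The 8100 promoter peaks that overlapped a shE2F1 peak are called retained, and the 7654 shE2F1 promoter peaks without a control shRNA overlap are called gained.

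The cells for H3K27me3 were transduced for 24 h with lentivirus that carried either a control shRNA or one directed at E2F1 (shE2F1) and then selected with puromycin at 2 µg/ml for 72 h. E2F1 itself was profiled in cells that were not transduced: without treatment, after 72 h with DMSO, the solvent, and after 72 h with GSK126 at 1 µM, which blocks the methyltransferase EZH2. Each of these 5 conditions has 1 library, so no difference between conditions has a replicate check and none is given a p-value. Intervals are 95% and cover counting error over regions only. The control shRNA list covered 143.2 Mb with a median fold of 3.17 and the shE2F1 list 178.9 Mb with a median fold of 2.95. For these broad peaks, fold is the authors' ratio of ChIP signal to background averaged over the peak. The E2F1 folds given below come from narrow peaks called in another mode, so they are not on one scale with the H3K27me3 folds. The level of E2F1 after knockdown was not analysed here.

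H3K27me3 is the trimethylated form of lysine 27 on histone H3, written by EZH2 as part of Polycomb repressive complex 2. The mark is known for holding developmental regulators silent, and in mammals Polycomb is typically found at CpG islands, the GC-rich stretches that cover the starts of most housekeeping and many developmental genes. E2F1 is a transcription factor of the cell cycle that binds promoters of genes for S phase entry and DNA replication. As a check of the mark, a control shRNA peak was present at a promoter of 3 of 39 HOX genes (7.69%), 27 of 105 other homeobox and T-box factors (25.7%), 7 of 20 genes chosen as housekeeping checks (35%) and 23.2% of all protein-coding genes. The HOX share was below that of all protein-coding genes and the housekeeping share above it, so this check did not show the mark concentrated at HOX promoters. A wide domain whose midpoint lies farther than 1000 bp from a TSS is not counted here. Whether this bears on the low HOX share was not tested.

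The DNA of a few regions shows the range of base composition among lost, retained and gained promoters. The windows below are the 200 bp centred on the midpoint, read from hg38 on the plus strand, with each CpG dinucleotide in capitals. C7 and ATP13A4 are shown because they were among the 3 lost regions of highest significance nearest to a protein-coding gene, ENSG00000287646 and NPM1 because they carried E2F1 peaks, and CMTR1 and LSM10 because they headed the retained and the gained regions of protein-coding genes.
C7, lost, chr5:40972206-40972405: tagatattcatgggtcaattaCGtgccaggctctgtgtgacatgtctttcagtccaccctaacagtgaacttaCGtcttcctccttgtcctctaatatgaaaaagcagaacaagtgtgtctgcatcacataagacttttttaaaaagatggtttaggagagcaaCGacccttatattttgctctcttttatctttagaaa
ATP13A4, lost, chr3:193555760-193555959: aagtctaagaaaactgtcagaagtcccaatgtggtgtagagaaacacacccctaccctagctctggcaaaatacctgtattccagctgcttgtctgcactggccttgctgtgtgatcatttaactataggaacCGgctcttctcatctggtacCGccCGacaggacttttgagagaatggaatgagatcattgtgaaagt
ENSG00000287646, lost, with E2F1, chr18:70205814-70206013: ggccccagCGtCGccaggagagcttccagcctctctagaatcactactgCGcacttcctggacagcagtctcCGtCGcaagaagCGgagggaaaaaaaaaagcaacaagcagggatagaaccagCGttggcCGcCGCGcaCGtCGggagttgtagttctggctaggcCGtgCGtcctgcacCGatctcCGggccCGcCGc
NPM1, lost, with E2F1, chr5:171388156-171388355: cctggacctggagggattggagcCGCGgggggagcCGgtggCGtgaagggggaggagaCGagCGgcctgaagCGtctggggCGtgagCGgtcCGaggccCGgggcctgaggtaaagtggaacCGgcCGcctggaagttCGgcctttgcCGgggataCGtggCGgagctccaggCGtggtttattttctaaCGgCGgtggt
CMTR1, retained, chr6:37433143-37433342: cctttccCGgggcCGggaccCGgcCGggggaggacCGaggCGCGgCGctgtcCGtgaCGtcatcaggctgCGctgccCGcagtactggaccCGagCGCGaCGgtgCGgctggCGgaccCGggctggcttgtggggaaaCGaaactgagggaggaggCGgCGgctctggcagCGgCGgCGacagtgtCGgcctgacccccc
LSM10, gained, chr1:36397742-36397941: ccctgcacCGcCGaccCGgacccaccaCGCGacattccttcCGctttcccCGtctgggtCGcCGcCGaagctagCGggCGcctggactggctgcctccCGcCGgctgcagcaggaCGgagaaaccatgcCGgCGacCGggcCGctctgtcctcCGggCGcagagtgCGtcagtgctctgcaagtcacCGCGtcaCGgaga
These windows are examples and do not stand for their sets, and not every window of the 3 highest is printed. The C7 and ATP13A4 windows held 3 CpGs each, at a GC content of 38.5% and 46.0%. The SPO11 window, which is not printed, was richer than these, with 9 CpGs at 57%. The lost regions that carried E2F1 were richer, with 18 CpGs at 62.0% for ENSG00000287646 and 20 CpGs at 68.0% for NPM1. The retained CMTR1 window held 26 CpGs at 75% and the gained LSM10 window 25 CpGs at 71.0%.

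The lost regions were weak and narrow peaks in the control shRNA library. Their fold had a median of 3.03, with quartiles of 2.88 and 3.27 and a range from 2.28 to 5.31. The −log10 q of the authors had a median of 1.49 and reached at most 4.53, and the median width was 456 bp, from 174 to 3310 bp. Retained promoter regions had a median fold of 3.23, a −log10 q of 1.84 that reached 68.1, and a median width of 886 bp. Low medians were not particular to lost promoters. Lost regions away from promoters had a median fold of 3.075, a −log10 q of 1.52 and a width of 457 bp. Gained promoter regions, from the shE2F1 library, had medians of 2.95, 1.66 and 480 bp. A −log10 q of at least 2 was found in 381 lost regions (15.2%), 3190 retained regions (39.4%) and 2737 gained regions (35.8%). No lost region passed 5, whereas 396 retained and 595 gained regions did. These values come from the libraries that chose the regions and are a description.

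**Figure D1:**
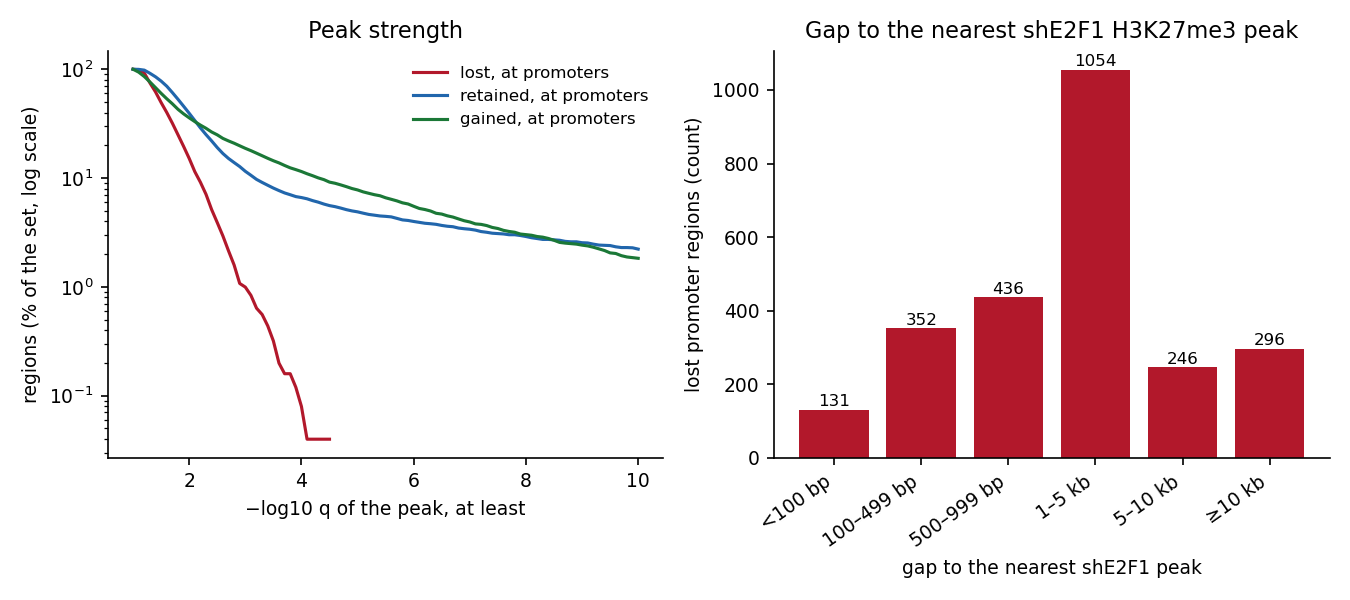
Left, the share of regions (%, log scale) whose −log10 q is at least the value on the horizontal axis, for lost, retained and gained promoter regions. Right, the number of lost promoter regions by the gap (bp or kb) to the nearest shE2F1 H3K27me3 peak. No lost region lies above 4.53, and 1054 of the 2515 lost regions lie between 1 and 5 kb from a shE2F1 peak.

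The gap from a lost promoter region to the nearest shE2F1 peak had a median of 1466 bp, with quartiles of 675 and 4051 bp. Lost regions away from promoters had similar gaps, with a median of 1641 bp and quartiles of 779 and 4133 bp. Among lost promoter regions, the gap was under 100 bp for 131 (5.21%) and 10 kb or more for 296. At the threshold itself, the regions at RTN1, CELF4 and AKR1B15 touched a shE2F1 peak without sharing a base and were lost, whereas the region at KIRREL3 shared 1 bp and was retained. The gap was under 50 bp for 69 lost regions, and the overlap was under 50 bp for 116 retained ones. On the promoter side, the regions at SCN3B, FRMD1 and RNU6-364P lay exactly 1000 bp from a TSS, with folds of 3.35, 3.04 and 2.97. Just outside were MCF2L and SIRPB3P at 1001 bp and RBMX2P5 at 1003 bp, with folds of 3.14, 3.04 and 2.95.

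Few fragments stood behind the short peaks that could be resolved. The fold and p-value of a short peak can be solved for the number of fragments and the background, and this was possible for 62 of the 758 lost regions shorter than 300 bp. Of these, 39 held 5 fragments, 14 held 6, 8 held 7 and 1 held 8, a median of 5. The median was 6 in 55 retained promoter regions and 5 in 1510 control shRNA peaks of the same length class. The exact Poisson interval of 5 fragments runs from 1.62 to 11.7. The background met most often amounted to 1.02 fragments for control shRNA peaks and 1.27 for shE2F1 peaks. With those backgrounds, 5 fragments give a fold of 2.96 and a −log10 p of 3.17 in control shRNA, but a fold of 2.65 and a −log10 p of 2.70 in shE2F1, where the lowest −log10 p of any peak was 2.63. The part of this difference in depth and background in the losses was not tested. The share of promoter peaks that were lost was 38.9% among peaks shorter than 300 bp and 1.36% among those of 2000 bp or more.

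Lost promoter regions were poor in GC and CpG. Over the 500 bp around the midpoint, their median GC content was 47.4% (47.0% to 48.0%, order statistics), below the 50.6% (50.2% to 50.8%) of retained regions, the 62.2% (61.6% to 63.0%) of gained regions and the 55% around all 218307 distinct TSSs. It lay above the 45% of the 37798 lost regions away from promoters. The CpG observed over expected ratio, which is 1 when CpGs are as frequent as the base composition predicts, had a median of 0.238 in lost, 0.295 in retained and 0.746 in gained regions. Windows like a CpG island, with a GC content of at least 55% and a ratio of at least 0.6, made up 138 lost regions (5.49%, exact interval 4.63% to 6.45%). The share was 21.2% in retained regions, a difference of −15.7 percentage points (Newcombe interval −16.9 to −14.4). It was 55% in gained regions and 35.5% around all TSSs.

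**Figure D2:**
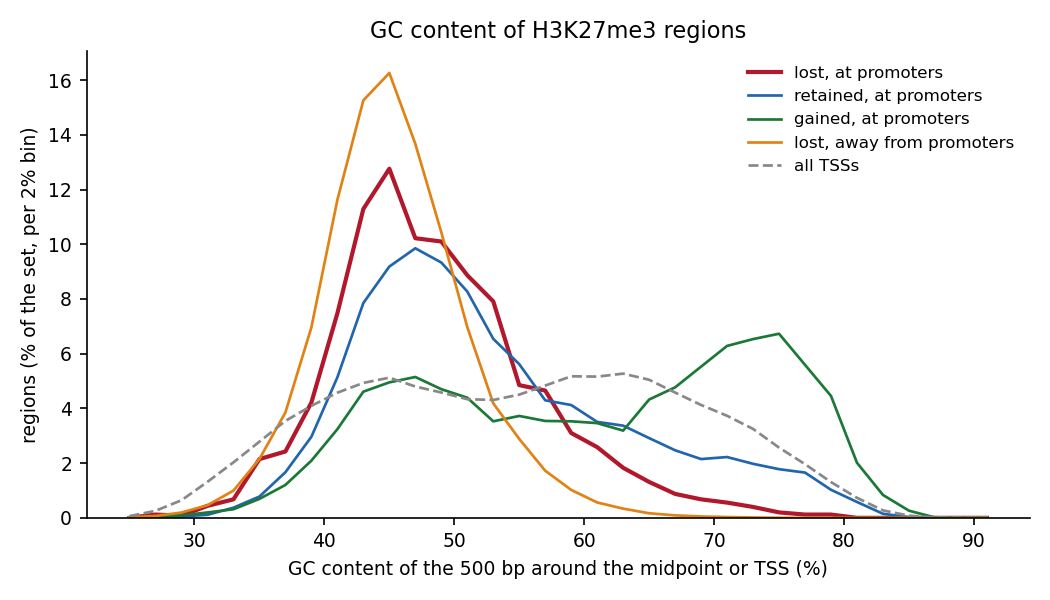
Distribution of GC content (%, horizontal axis, bins of 2%) over the 500 bp around the midpoint of each region or around each TSS, as the share of each set (%, vertical axis). Lost promoter regions peak near the lost regions away from promoters, with medians of 47.4% and 45%, whereas gained promoter regions have a second, higher mode above 70% and a median of 62.2%.

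Read the other way, the share of control shRNA promoter peaks that were lost fell with GC content. It was 44.3% (35.3% to 53.5%) of 122 peaks under 35% GC, 31.1% of 2038 peaks from 40% to 45%, 25.4% of 1929 peaks from 50% to 55%, and 6.60% (5.33% to 8.06%) of 1349 peaks at 65% or more. The median −log10 q of these peaks, lost and retained together, was 1.83 under 35% GC, 1.69 from 50% to 55% and 2.27 at 65% or more. Among the 1947 promoter peaks shorter than 300 bp, the median GC content was 47.8% in lost and 56.4% in retained peaks. By chromosome, the lost share was lowest on chromosome 19, with 89 of 716 peaks (12.4%, 10.1% to 15.1%), and highest on chromosome X, with 116 of 326 (35.6%, 30.4% to 41.1%), and on chromosome 13, with 65 of 185 (35.1%).

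E2F1 peaks were rare at the lost promoters in each of the 3 E2F1 lists. In untreated cells, 3 of the 2515 lost regions (0.119%, exact interval 0.0246% to 0.348%) had an E2F1 peak within 500 bp of the midpoint, against 1.65% of retained regions, a difference of −1.54 percentage points (Newcombe interval −1.85 to −1.19). In DMSO the numbers were 41 regions (1.63%, 1.17% to 2.21%) against 9.94%, a difference of −8.31 points (−9.10 to −7.45). In GSK126 they were 44 regions (1.75%, 1.27% to 2.34%) against 15.6%, a difference of −13.9 points (−14.8 to −12.9). Gained regions had an E2F1 peak in 5.07%, 33.8% and 48.4% of cases, and all distinct TSSs in 2.95%, 17.8% and 27.9%. The TSS windows are centred on the TSS itself and count each distinct TSS of a gene, so they are not matched to the region windows in position or gene type. The untreated list holds 1056 peaks, against 15703 in DMSO and 14276 in GSK126, so the shares of different lists are not on one scale.

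**Figure D3:**
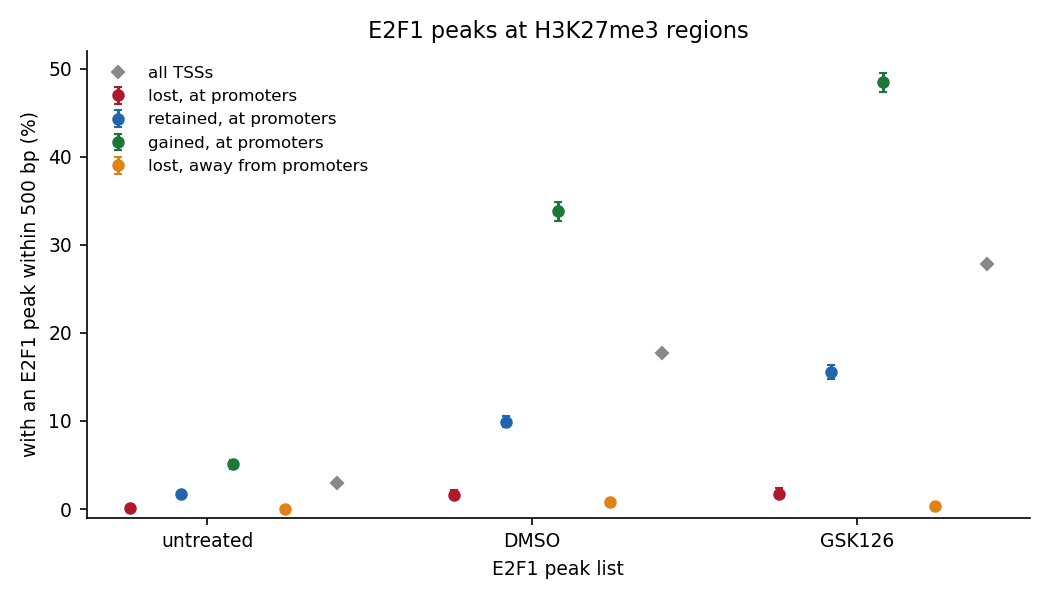
Share of regions (%, vertical axis) with an E2F1 peak within 500 bp of the midpoint in the untreated, DMSO and GSK126 lists (horizontal axis). Points are sets of H3K27me3 regions with exact 95% intervals, and diamonds are all distinct TSSs, with the window centred on the TSS itself. Lost promoter regions sit at 0.119%, 1.63% and 1.75%, below retained promoter regions and all TSSs in each list.

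Lost regions away from promoters had fewer still, with 0.812% in DMSO, 0.291% in GSK126 and 0 of 37798 in untreated cells, which allows a share of up to 0.00976%. Over all lists, 65 lost promoter regions (2.58%) had an E2F1 peak and 2450 had none. Of the 65, 3 had a peak in all lists, 17 in DMSO and GSK126, 24 in GSK126 alone and 21 in DMSO alone. A peak in DMSO alone was found at 0.835% of lost regions (0.518% to 1.27%) and 0.383% of retained regions (0.260% to 0.543%), the reverse order of the shares with a peak in both treatments.

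GC content and E2F1 went together, so the lost share was compared within GC classes. A control shRNA promoter peak with an E2F1 peak in any list was lost in 65 of 1360 cases (4.78%, 3.71% to 6.05%), and one without in 2450 of 9255 cases (26.5%, 25.6% to 27.4%). At a GC content of 65% or more the shares were 2.79% (1.77% to 4.15%) of 826 with E2F1 and 12.6% (9.90% to 15.8%) of 523 without. From 55% to 60% they were 3.68% of 136 and 24.2% of 1011. From 40% to 45%, where 28 peaks had E2F1, they were 32.1% (15.9% to 52.4%) and 31% (29.0% to 33.1%). The gap between peaks with and without E2F1 was thus seen in GC-rich classes, and the intervals overlapped below 50% GC. Width moved with E2F1 too: at 65% GC or more, the median width was 350.5 bp with and 1167 bp without E2F1, and short peaks were lost more often overall. Peak strength moved with E2F1 as well. At 65% GC or more, the median −log10 q was 2.65 with and 1.95 without E2F1. From 55% to 60% it was 2.86 and 1.68, and from 40% to 45% it was 1.58 and 1.71. The part of peak strength in these shares was not tested.

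**Figure D4:**
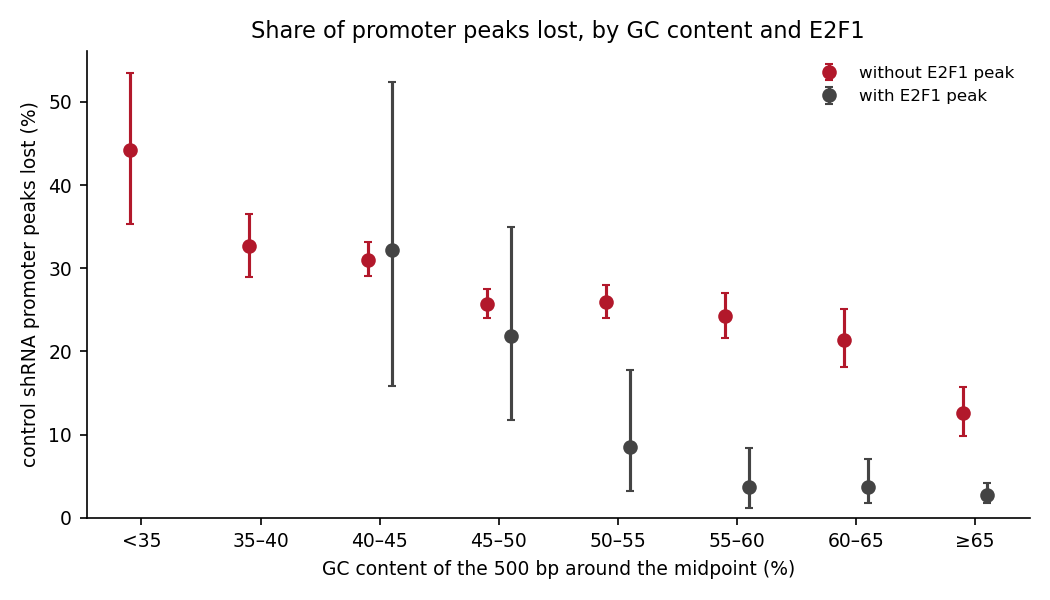
Share of control shRNA H3K27me3 promoter peaks that were lost (%, vertical axis) by GC content of the 500 bp around the midpoint (%, horizontal axis), for peaks with and without an E2F1 peak in any of the 3 lists. Bars are exact 95% intervals and classes with fewer than 20 peaks are left out; without E2F1 the share runs from 44.3% to 12.6%, and with E2F1 it lies at 3.68%, 3.77% and 2.79% in the 3 classes from 55% upward.

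The E2F motif gave the same order as the peaks. The word TTNNCGC, with C or G at each N, was searched on both strands within 100 bp of the midpoint. At least 1 match was present in 54 lost regions (2.15%, 1.62% to 2.79%), in 5.30% of retained regions, a difference of −3.15 percentage points (−3.86 to −2.35), in 9.94% of gained regions and in 7.65% of windows around all TSSs. Lost regions away from promoters held it in 1.21% of cases. Every form of this word contains a CpG, and the sets differ in GC content as given above.

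The 65 lost regions that did carry E2F1 spread over GC content, with 23 at 65% or more, 9 from 60% to 65%, 5 from 55% to 60%, 6 from 50% to 55%, 12 from 45% to 50%, 9 from 40% to 45% and 1 below. Those described next carried E2F1 in untreated cells or in both treatments, and they lay at the GC-rich end. Only ENSG00000287646, a lncRNA on chromosome 18 whose region lies 188 bp from the nearest TSS of RTTN, overlapped an untreated E2F1 peak. Its H3K27me3 region (chr18:70205783-70206044) had an H3K27me3 fold of 3.10 at a −log10 q of 1.45, and E2F1 reached a fold there of 13.5 untreated, 14.3 with DMSO and 32.6 with GSK126. Over all peaks of each list, the median E2F1 fold was 8.07 untreated, 4.57 with DMSO and 6.33 with GSK126. With 1 library per list, a fold difference between lists at a region cannot be told apart from a difference between libraries. The other two regions near an untreated E2F1 peak were at CACYBP, which encodes calcyclin-binding protein, with a fold of 3.02 and a GC content of 55.6%, and at CPLANE1-AS1, with a fold of 2.73 and a GC content of 68.2%.

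Of 14 lost regions that overlapped E2F1 in both DMSO and GSK126, the strongest E2F1 was at NPM1, the gene of the nucleolar protein nucleophosmin. Its H3K27me3 region (chr5:171387774-171388738) had a fold of 2.81 at a −log10 q of 1.23. The midpoint lay in an annotated intron 356 bp upstream of the nearest TSS, and the E2F1 fold was 30.6 in DMSO and 60.7 in GSK126. At HMCES, whose product shields abasic sites in DNA, an H3K27me3 fold of 2.90 stood beside E2F1 folds of 20.0 and 32.7. At SMPD4, a sphingomyelinase gene, the values were 2.80 beside 17.0 and 33.2, and at CCT2, a chaperonin subunit gene, 3.16 beside 7.18 and 11.1. The GC content of these 4 regions lay between 67.0% and 70.4%, and the nearest shE2F1 peak was between 30125 and 36780 bp away. CORO2B, which encodes a coronin that binds actin, had the strongest mark of the 10 named, with an H3K27me3 fold of 3.97 at a −log10 q of 2.75 beside E2F1 folds of 5.39 and 9.84. At DHRS3, a retinaldehyde reductase gene, and ABHD17B, a depalmitoylase gene, the H3K27me3 folds were 3.11 and 2.97 and the E2F1 folds in DMSO 4.28 and 4.26.

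Lost regions lay less often at protein-coding genes than the other promoter regions did. The nearest TSS belonged to a protein-coding gene in 1064 lost regions (42.3%, 40.4% to 44.3%), against 57.5% of retained regions, a difference of −15.2 percentage points (Newcombe interval −17.4 to −12.9), and 69.0% of gained regions. It belonged to a long non-coding RNA in 712 lost regions (28.3%) against 22.2% of retained ones, and to a pseudogene in 541 (21.5%) against 14.9%. Processed pseudogenes, the reinserted copies of spliced mRNAs, were the largest pseudogene class, with 373 lost regions. Small RNA genes were nearest to 148 lost regions (5.89%) against 4.04% of retained ones. Of all control shRNA promoter peaks, 18.6% (17.6% to 19.6%) were lost at protein-coding genes, 28.4% (26.6% to 30.2%) at lncRNAs and 31% (28.8% to 33.2%) at pseudogenes. The gene types differed in GC content as well, with medians of 49.2%, 47.2% and 45.8% for the lost regions of these 3 classes.

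The midpoint of a lost region was also farther from the TSS. It lay within 100 bp of one in 13.9% of lost, 22.4% of retained and 41.1% of gained regions, and the median distance was 433, 346 and 147 bp. The side of the TSS did not set lost regions apart, with 51.9% of midpoints downstream, against 50.8% in retained and 54.1% in gained regions. Midpoints fell in an intron in 49.9% of lost regions, between genes in 21.0%, in an exon of a non-coding transcript in 18.8%, in a coding exon in 5.37% and in a UTR exon in 4.89%. The UTR exon share was 10.3% in retained and 22.9% in gained regions.

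At least 1 lost region lay at a TSS of 1003 protein-coding genes, which is 5.02% of the 19970 genes annotated and 21.6% (20.4% to 22.8%) of the 4639 with a control shRNA promoter peak. A gained region lay at 5923 genes (29.7%). Of the 1003 genes, 399 had no shE2F1 peak at any of their TSSs, and the rest had one at some TSS. The counts below are of genes, which can share a region, and no list was tested against the others.

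Developmental regulators were among the genes with a lost region. Of 105 homeobox and T-box factors, 27 had a control shRNA peak and 10 of these a lost region (37.0%, 19.4% to 57.6%, beside 21.6% of all genes), and 17 had a gained region (16.2%, beside 29.7%). PRRX1, a homeobox gene of mesenchyme, had the strongest of them, with a fold of 4.44 at a −log10 q of 3.19, and it also had 3 retained regions. ONECUT1, a factor of liver and pancreas development, had a fold of 3.53, and PAX6, known from eye development, a fold of 3.15. The other members with a lost region were EMX1, EN1, LHX1, OTX2, PAX3, POU3F3 and TBX20, with folds from 2.62 to 3.13. EMX1, EN1, OTX2, POU3F3 and ONECUT1 also had a gained region, PAX3 had 1 retained region, and PAX6 had 2 retained and 1 gained. LHX1 and TBX20 had no shE2F1 peak at all. Of the HOX genes, which set position along the body axis, HOXD10 (fold 3.56, −log10 q 2.65, 1374 bp wide) and HOXB13 (fold 2.91) had a lost region and no shE2F1 peak. Of 75 GATA, SOX and forkhead genes, 13 had a control shRNA peak and only SOX6 a lost one, with a fold of 2.95. SOX6 also had 1 retained and 2 gained regions.

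Families of genes that are silent in most tissues made up a small part of the 1003 genes. Olfactory receptors, odorant sensors of the nose, had a lost region at 22 of 109 genes with a control shRNA peak (20.2%, 13.1% to 28.9%), close to the share of all genes, while 33 of the 415 (7.95%) had a gained one against 29.7% of all genes. OR5A2 had a fold of 3.87, OR5B17 a fold of 3.81 and OR4D9 a fold of 3.80, and 15 of the 22 had no shE2F1 peak. Beta-defensins, antimicrobial peptides of epithelia, had a lost region at 5 of 10 genes with a control shRNA peak (50.0%, 18.7% to 81.3%, beside 21.6% of all genes), among them DEFB126 with a fold of 3.50, and a gained region at 1 of 40. Cancer-testis genes, active in germ cells and in some tumors, were lost at 5 of 10 (50.0%, 18.7% to 81.3%), an interval that includes the 21.6% of all genes. The genes were PAGE5, SSX1, SSX5, PAGE3 and MAGEB3, with folds of 3.74, 3.33, 3.22, 3.07 and 2.74. All of these lie on chromosome X, and PAGE3 also had a gained region. Keratins were lost at 4 of 21 (19.05%, 5.45% to 41.9%), close to the share of all genes, with KRT27 at a fold of 3.83 and KRT24 at 3.51. KRT27 also had a gained region, and KRT24 had no shE2F1 peak.

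Among the 25 lists, that of the solute carriers held the most genes with a lost region. Solute carriers, the membrane transporters of small molecules, had a lost region at 36 of 109 genes with a control shRNA peak (33.0%, 24.3% to 42.7%), beside 21.6% of all genes. Of these 36 genes, 10 had no shE2F1 peak. SLC18A1, a vesicular monoamine transporter, had a fold of 4.10, SLC25A21, a mitochondrial carrier, a fold of 3.81, and SLC22A16, a carnitine transporter, a fold of 3.63. Each of these genes also had a shE2F1 peak at a TSS, and SLC18A1 and SLC22A16 had a gained region. SLC2A3, a glucose transporter of neurons, had a fold of 3.03 and no shE2F1 peak. Potassium channels were lost at 8 of 34 (23.5%, close to all genes), with KCNMA1, the large-conductance calcium-activated channel, at a fold of 3.86 and KCNJ2, an inward rectifier, at 3.29. KCNMA1 also had 2 retained and 3 gained regions, and KCNJ2 had 1 gained region. Interleukins, chemokines and interferons were lost at 8 of 32 (25%). CCL5, a chemokine that draws T cells, had a fold of 3.18 at a −log10 q of 2.01 at 7 bp from the TSS, and CXCL10, an interferon-induced chemokine, a fold of 3.16. Neither had a shE2F1 peak.

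Of 35 E2F target and G1/S genes, 6 had a control shRNA peak and 2 of these a lost region (33.3%, 4.33% to 77.7%, beside 21.6% of all genes). Over the whole list, a lost region was present at 5.71%, beside 5.02% of all genes, and a gained one at 13 genes (37.1%, beside 29.7%). Both genes with a lost region also had a shE2F1 peak at a TSS. MYBL2, which encodes the transcription factor B-Myb, had a lost region with a fold of 2.70 and an E2F1 peak within 500 bp in both DMSO and GSK126, 130 bp from a shE2F1 peak. CCND2, which encodes cyclin D2, had a lost region with a fold of 2.68 beside 2 retained ones. No gene had a lost region among 44 of the DNA replication machinery (exact upper limit 8.04%), 33 of mitosis and the spindle checkpoint (10.6%), 30 of apoptosis (11.6%), 31 Polycomb genes (11.2%), 35 of epithelial-mesenchymal transition (10.0%), 38 of MHC class I and the interferon response (9.25%), 78 mitochondrial ribosomal proteins (4.62%) and 20 housekeeping checks (16.8%). Between 2 and 9 genes of each of these lists had a control shRNA peak, so that losses among them were hardly detectable at this number.

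**Figure D5:**
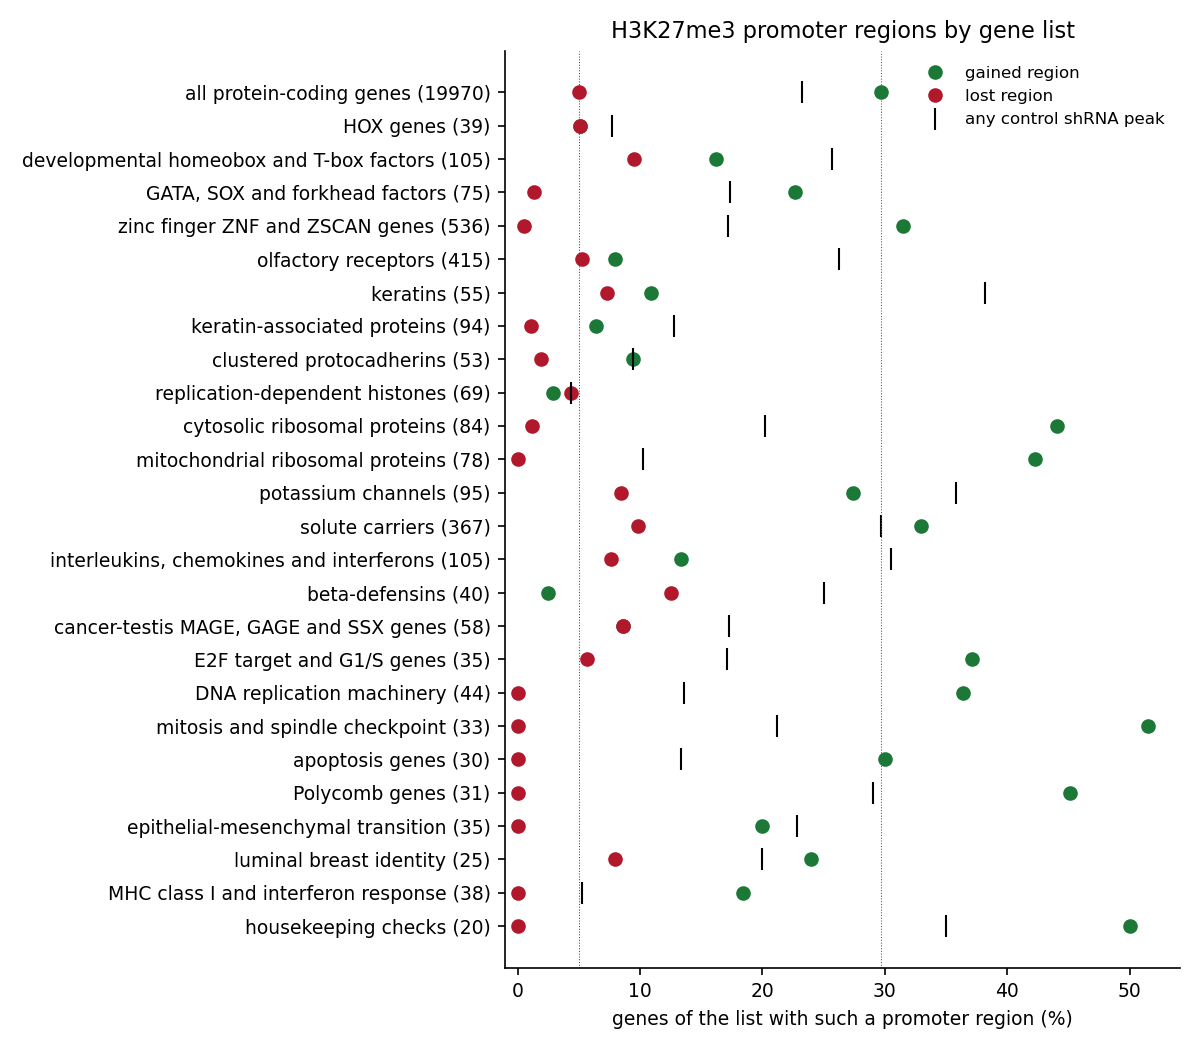
Share of the genes of each list (%, horizontal axis) with a lost region, a gained region or any control shRNA H3K27me3 peak within 1000 bp of a TSS, with the number of genes in parentheses and dotted lines at the lost (5.02%) and gained (29.7%) shares of all protein-coding genes. Beta-defensins stand at 12.5% lost and 2.5% gained, and mitosis genes at 0% lost and 51.5% gained.

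Zinc finger genes of the ZNF and ZSCAN families, a large family of DNA-binding proteins, had few lost regions. A control shRNA peak was present at 92 of 536 genes and a lost region at 3 (3.26%, 0.678% to 9.24%), beside 21.6% of all genes. These were ZNF280A, ZNF892 and ZNF385C, with folds of 3.60, 3.05 and 2.72. ZNF280A also had a gained region and ZNF385C a retained one. A gained region was present at 169 zinc finger genes (31.5%, beside 29.7% of all genes). Cytosolic ribosomal protein genes were lost at 1 of 17 (5.88%, 0.149% to 28.7%), the paralog RPL39L with a fold of 2.92. That interval includes the 21.6% of all genes. A gained region was present at 37 of 84 (44.05%, beside 29.7% of all genes). A control shRNA peak was present at 3 of 69 replication-dependent histone genes, and all 3 had only a lost region, namely H3C7 and the neighbours H2AC1 and H2BC1, which share a region with a fold of 2.48. Among luminal breast genes, ESR1, which encodes estrogen receptor alpha, had a lost region with a fold of 3.26, and it also had 1 retained and 1 gained region.

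The lost regions with the highest −log10 q lay at genes of unrelated functions. C7, a component of the complement membrane attack complex, led with a fold of 5.31 at a −log10 q of 4.53 over 920 bp (chr5:40971846-40972765). Its midpoint lay in an annotated intron 215 bp upstream of the nearest TSS, and a shE2F1 peak lay 964 bp away. SPO11, which makes the DNA breaks of meiosis, followed with a fold of 4.86 at a −log10 q of 4.01. The next protein-coding genes were ATP13A4, a P-type ATPase gene (fold 4.59), ABCB4, the phospholipid exporter of bile (4.60), FAM153A (4.47) and DAPP1, an adaptor of B cell signaling (4.59). The non-coding genes among the 10 were the lncRNAs ENSG00000232053 (4.86), HULC (4.13), which was first described in liver cancer, and ENSG00000225881 (4.20), and the processed pseudogene ENSG00000254629 (4.65). None of the 10 overlapped an E2F1 peak in any list, and their GC content lay between 32.0% and 55.8%. Such an overlap was rare in the whole set, at 53 of the 2515 lost regions, so its absence does not set the 10 apart. Of the lost regions of lncRNAs, LINC00839 (4.55) and ENSG00000242317 (4.37) had the next highest folds after ENSG00000232053. The widest lost regions were at the olfactory receptor pseudogene OR5BA1P with 3310 bp, at FXYD7, a regulator of the sodium pump, with 3149 bp, and at FRMD7 with 3086 bp.

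A single lost region was present at 895 protein-coding genes, 2 at 93 and 3 at 15. Genes with 3 had many annotated TSSs, from 6 at LRP2 and PTPN5 to 90 at TCF4, and all 15 also had a shE2F1 peak at some TSS. LRP2, which encodes the endocytic receptor megalin, AFF3 and PARVG had 3 lost and 1 retained region. SELP, which encodes the adhesion molecule P-selectin, had 3 lost and 2 gained regions. PTPN5, a neuronal tyrosine phosphatase gene, PRR5L and SLC19A3, a thiamine transporter gene, had 3 lost and 1 gained. At C3 of the complement system and at the kinesin gene KIF5C, 3 lost regions stood among 5 and 7 retained ones.

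Repeated sequence was more frequent in lost regions. The central 31 bases occurred more than once in hg38 in 316 lost regions (12.6%, 11.3% to 13.9%), against 7.78% of retained regions, a difference of 4.79 percentage points (Newcombe interval 3.41 to 6.25), and 5.76% of gained regions. They occurred more than 10 times in 7.36% of lost regions. SPO11 and ENSG00000254629 were among these. How the authors treated reads that align to several places could change these peaks, and the part of repeats in the losses was not tested.

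A core of 215 regions (8.55% of those lost) had a −log10 q of at least 2 and no shE2F1 peak within 1000 bp, a subset set after the data were seen. Its median GC content was 45.6% (44.6% to 46.4%), 86 of the regions (40%) were nearest to a protein-coding gene, and 4 (1.86%, 0.509% to 4.70%) had an E2F1 peak in any list. Over all lost regions, the median GC content was 47.4%, with 42.3% nearest to a protein-coding gene and 2.58% with an E2F1 peak. The core was set by values from the libraries that chose the regions. SPO11, ATP13A4, FAM153A and DAPP1 belong to the core.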

How the data were processed

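ChIP-seq of 5 libraries was used, 1 for each condition; the input of untreated cells was not used here. Per the study's methods, chromatin was sheared by sonication for E2F1 and cut with micrococcal nuclease for H3K27me3. The authors trimmed the reads with cutadapt 4.5, mapped them to GRCh38 by Bowtie2 2.5.2 and ran MACS2 2.2.9.1 on each library separately, in broad mode for H3K27me3. The control library behind the calls is not given in the sources used here. The deposited fold is a ratio of ChIP signal to background, and the deposited −log10 p and −log10 q are those of MACS2, the lowest −log10 q being 1.01 for H3K27me3 and 2.01 for DMSO E2F1. The deposited score and summit offset were not used for any value reported. Read totals were not used here, so the depth of a library is known only through the fragments solved from short peaks. A solution was accepted when its −log10 p matched the deposited one within a relative difference of 2e-05. This held for 1510 of 21884 control shRNA peaks shorter than 300 bp.

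Overlaps, sequence features and gene assignments were computed in Python 3.11.15 with numpy 2.4.6, pandas 2.3.3 and SciPy 1.17.1, after the routines were tested on simulated data. Sequence came from hg38 and genes from GENCODE release 44. A region was named by its nearest TSS. Shares carry exact Clopper-Pearson intervals and differences of shares Newcombe intervals. Regions were named by fixed rules: the 10 highest by −log10 q, those overlapping untreated E2F1, up to 10 overlapping E2F1 in both treatments, the strongest of each of 25 gene lists, the 3 widest, those beside each threshold, the 3 strongest lncRNA regions and the genes with the most lost regions. Other list members, CACYBP and the contrast genes were named after their values were seen. The regions and lists were chosen with earlier results of these data known. The GC classes, the repeat measure and the core subset were set after the data were seen. Some named results and a sequence are not reported here.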

Additional observations from a re-analysis of the deposited data

How the results depend on the processing

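Of 40 alternative values, 14 stayed close to the reported one and 26 moved; none turned a difference to the other sign. The number of lost promoter regions followed the thresholds most: 381 with a −log10 q of at least 2 in the control shRNA list, 1629 with that limit in both lists, 4144 when at least 50% of a peak had to be covered to be retained, 1592 with no shE2F1 peak within 1 kb, 1426 and 4600 for promoters of 500 and 2000 bp, and 1095 at TSSs of protein-coding genes. Counting only genes without any shE2F1 peak gave 399 in place of 1003.

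The differences between lost and retained regions moved as follows. With a −log10 q of at least 2, they were −3.10 points for untreated E2F1, −16.1 for DMSO, −25.0 for GSK126, −22.4 for protein-coding genes, −5.30 for the E2F motif and −8.10 for median GC. Among regions shorter than 500 bp they were −4.52, −22.2 and −34.1 for the E2F1 lists and −7.00 for GC. With no shE2F1 peak within 1 kb, the protein-coding difference was −18.0. Limiting untreated E2F1 to a −log10 q of 5 or more gave −1.19, and the motif within 250 bp −5.70. GC differed by −1.84 over the peak itself and by −4.05 over 2000 bp. In GC classes set after the data were seen, the GSK126 difference was −0.555 (−1.18 to 0.235) under 45%, −2.14 (−2.83 to −1.34) from 45% to 55% and −33.7 (−36.4 to −30.5) above, so it was not detectable in the lowest class. The cause of these moves was not tested. Removing the 316 regions with a repeated centre left 2199. No paired analysis was possible because each condition has 1 library, and none could be left out for the same reason.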
